A study of Mus musculus with 4 samples.

Results

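Glycolysis and hypoxia-response genes were followed in single-cell RNA sequencing of mouse primary spermatogonial cultures. The set held 37 genes, matched by symbol among the 32245 symbols of the count matrices. It was made of 23 genes of glucose uptake, glycolysis, lactate handling and pyruvate entry (the glycolysis list) and 14 genes known to respond to low oxygen (the hypoxia-response list). The genes were chosen by pathway and by measured values of these same libraries, namely their UMI levels in each cell class and in EV-treated against vehicle cultures, so all counts of members below are descriptions and no test was run on them. The cultures were started from Thy1+ testis cells, enriched on magnetic columns from 3 male mice at postnatal day 6, and kept on a feeder layer of the mouse fibroblast line STO. They were given either PBS (vehicle) or extracellular vesicles (EVs) isolated from testes at postnatal day 7, at 1 µg/mL, for 3 days. The labels named 2 biological replicates per arm. Expression was read in vehicle 1, vehicle 2 and EV 1, and that of EV 2 was not analysed here, so each statement on EVs rests on 1 treated library and has no replicate check in that arm.

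Glycolysis turns 1 molecule of glucose into pyruvate in the cytosol. Glucose enters through transporters of the Slc2a family, is trapped by a hexokinase, passes the committed step at phosphofructokinase, and leaves the lower pathway as pyruvate, which lactate dehydrogenase reduces to lactate for export by monocarboxylate transporters. Many of these genes are also targets of the hypoxia-inducible factors. When oxygen is present, prolyl hydroxylases (encoded by Egln genes) mark the factors' alpha subunits for destruction through Vhl. When it is low, the subunits last and bind short ACGTG-core motifs together with Arnt. In the testis, undifferentiated spermatogonia are known to rely on glycolysis, and haploid germ cells switch to isozymes of their own.

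Promoter sequences were read first, because members were proposed as a group of oxygen-responsive genes and the letters can be set against the levels given below. RefSeq windows of the 250 bases before each start (build GRCm38.p6, the same assembly as mm10) were found for 22 of the glycolysis genes and 12 of the hypoxia-response genes. Entries for Slc2a3, Ndrg1 and Ero1l were not found in the table used. The letters ACGTG, or CACGT for the other strand, were searched. A palindromic CACGTG, also known as an E-box, holds both and counts as a match on each strand. Among the hypoxia-response genes, 10 of 12 (83.3%) had a match in at least 1 window, as did 11 of 22 glycolysis genes (50.0%). Over all 27025 genes with windows the share was 18.5%. Of the 12 genes with windows that were called higher in EV 1 feeder cells (by the rule given below), 8 had a match and 4 (Hk1, Pfkp, Adm and Kctd11) had none, and of the 17 tested there and not called, 10 had a match. Genes with several starts had more windows in which to find a match, and these windows were compared with no account of base composition. A match is a string of letters and was not tested as a binding site. The windows printed here belong to 4 genes called higher in EV 1 feeder cells (Slc2a1, Hk2, Bnip3 and Hilpda), to Pgk1, which was level in feeder cells, and to Ldhb, which was lower in EV 1 feeder cells. Capitals mark the matches.
Slc2a1, chr4:119108495-119108744, plus strand: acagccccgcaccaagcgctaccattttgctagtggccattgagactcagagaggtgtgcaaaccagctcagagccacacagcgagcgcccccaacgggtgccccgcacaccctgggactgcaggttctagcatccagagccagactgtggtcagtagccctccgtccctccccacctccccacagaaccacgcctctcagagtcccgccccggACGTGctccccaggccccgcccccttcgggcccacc
Hk2, chr6:82774455-82774704, minus strand: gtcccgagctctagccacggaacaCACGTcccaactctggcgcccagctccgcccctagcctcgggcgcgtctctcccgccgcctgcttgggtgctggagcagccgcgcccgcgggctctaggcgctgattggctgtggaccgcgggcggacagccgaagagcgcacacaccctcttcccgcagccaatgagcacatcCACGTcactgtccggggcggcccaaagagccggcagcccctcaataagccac
Bnip3, chr7:138909507-138909756, minus strand: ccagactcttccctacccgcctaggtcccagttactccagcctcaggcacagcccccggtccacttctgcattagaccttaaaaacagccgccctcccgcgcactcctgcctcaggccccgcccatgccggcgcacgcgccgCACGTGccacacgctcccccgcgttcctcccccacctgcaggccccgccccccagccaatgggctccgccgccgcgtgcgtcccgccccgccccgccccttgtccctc
Hilpda, second of its windows, chr6:29272376-29272625, plus strand: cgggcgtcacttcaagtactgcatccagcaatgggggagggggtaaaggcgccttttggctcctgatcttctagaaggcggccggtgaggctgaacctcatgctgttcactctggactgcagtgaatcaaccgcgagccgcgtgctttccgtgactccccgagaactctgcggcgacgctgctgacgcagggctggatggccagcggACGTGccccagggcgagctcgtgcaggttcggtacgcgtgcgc
Pgk1, chrX:106186850-106187099, plus strand: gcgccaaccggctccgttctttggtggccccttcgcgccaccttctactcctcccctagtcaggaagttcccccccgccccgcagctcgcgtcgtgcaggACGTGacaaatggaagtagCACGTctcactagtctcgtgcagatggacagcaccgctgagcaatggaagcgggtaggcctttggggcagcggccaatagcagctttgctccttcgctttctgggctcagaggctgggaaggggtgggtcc
Ldhb, chr6:142507958-142508207, minus strand: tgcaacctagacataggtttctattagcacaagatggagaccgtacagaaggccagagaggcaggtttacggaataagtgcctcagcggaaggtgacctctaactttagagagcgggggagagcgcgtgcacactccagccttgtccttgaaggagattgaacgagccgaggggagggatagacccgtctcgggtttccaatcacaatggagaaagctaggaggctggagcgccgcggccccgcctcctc
The match in Slc2a1 began 36 bases before the start. Hk2 had matches at 226 and 52 bases, and Bnip3 held a CACGTG at 108 bases. In Hilpda the match stood 43 bases before the second start, and the first window, which overlaps it, held none. Pgk1 carried matches at 150 and 131 bases although its feeder level was close to equal in all libraries, and Ldhb had none.

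After the filters, 8263, 8637 and 4779 cells were kept in vehicle 1, vehicle 2 and EV 1. Cells were called germ cells by UMIs of Dazl, Tex15, Stk31 and Epcam, and feeder cells by UMIs of Col1a1, Col1a2, Sparc and Dcn. A UMI (unique molecular identifier) marks 1 captured RNA molecule. The germ class held 4411, 4783 and 227 cells and the feeder class 2357, 2473 and 2508. Summed germ UMIs were therefore 9445041, 11013433 and only 325012, against 9560631, 10756382 and 6784725 in feeder cells, and germ values of EV 1 carry by far the widest counting error. Median UMIs per cell were also lower in EV 1, at 1322 against 1936 and 2091 in germ cells and 2447.5 against 3635 and 3896 in feeder cells. Levels are in CPM, the UMIs of a gene per 1000000 UMIs of the same class and library. The class names were checked on markers outside the class rule. The 6 such germ markers (Ddx4, Dnd1, Sall4, Mael, Tdrd5 and Taf4b) summed to 522, 527 and 511 CPM in the germ class and to 16.3, 13.4 and 3.39 CPM in the feeder class. The 7 feeder markers used in this way were Col3a1, Col5a1, Col6a1, Fbn1, Fn1, Pdgfra and Pdgfrb. Lum and Thy1, also feeder markers outside the rule, were not in this sum. The 7 summed to 207, 197 and 302 CPM in the germ class and to 1705, 1777 and 1580 CPM in the feeder class, although Fbn1 among them was higher in the germ class. The feeder class could hold testis fibroblasts as well as STO cells. Markers of red blood cells were at or near 0 in it. The 5 Leydig markers summed to 3.87, 3.35 and 2.21 CPM in vehicle 1, vehicle 2 and EV 1, most of it from Star. The 5 endothelial markers summed to 7.22, 5.30 and 6.93 CPM. The 6 Sertoli markers summed to 288, 305 and 283 CPM, of which Sox9 alone gave 281, 298 and 275 CPM. The 5 macrophage markers all had UMIs there and summed to 14.9, 10.97 and 23.1 CPM, with Cd68 at 6.69, 6.23 and 18.1 CPM, and the 4 peritubular myoid markers summed to 27.3, 27.0 and 16.9 CPM. Macrophage markers were thus highest and peritubular markers lowest in EV 1, and their part in the feeder results below was not tested. At most 22 cell barcodes were shared by any pair of libraries. CPM were not divided by gene length, so they compare samples and classes for a gene, not genes with each other. Ranges in brackets are 95% intervals that cover counting error only.

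Feeder cells carried most of the glycolytic RNA. The 23 glycolysis genes summed to 12697, 12764 and 14116 CPM in feeder cells of vehicle 1, vehicle 2 and EV 1, and to 3801, 3662 and 5661 CPM in germ cells. The hypoxia-response genes summed to 2870, 3028 and 5791 CPM in feeder cells and to 778, 762 and 1812 CPM in germ cells. Both sums were higher in feeder cells in every library, and both were highest in EV 1 within each class. By a 2-fold difference in the same direction in all 3 libraries, and among genes with at least 200 UMIs, 21 of the 36 members that passed this minimum were higher in feeder cells and 6 in germ cells. Over all 12134 genes the shares were 13.8% higher in feeder cells and 26.6% higher in germ cells. The median log2 ratio of germ over feeder cells was -1.35 for the glycolysis list and -2.10 for the hypoxia-response list, against 0.42 over all genes. Car9, at 0 UMIs in germ cells of EV 1, enters the second median, which was -2.002 with this value set at 3 UMIs.

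**Figure D1:**
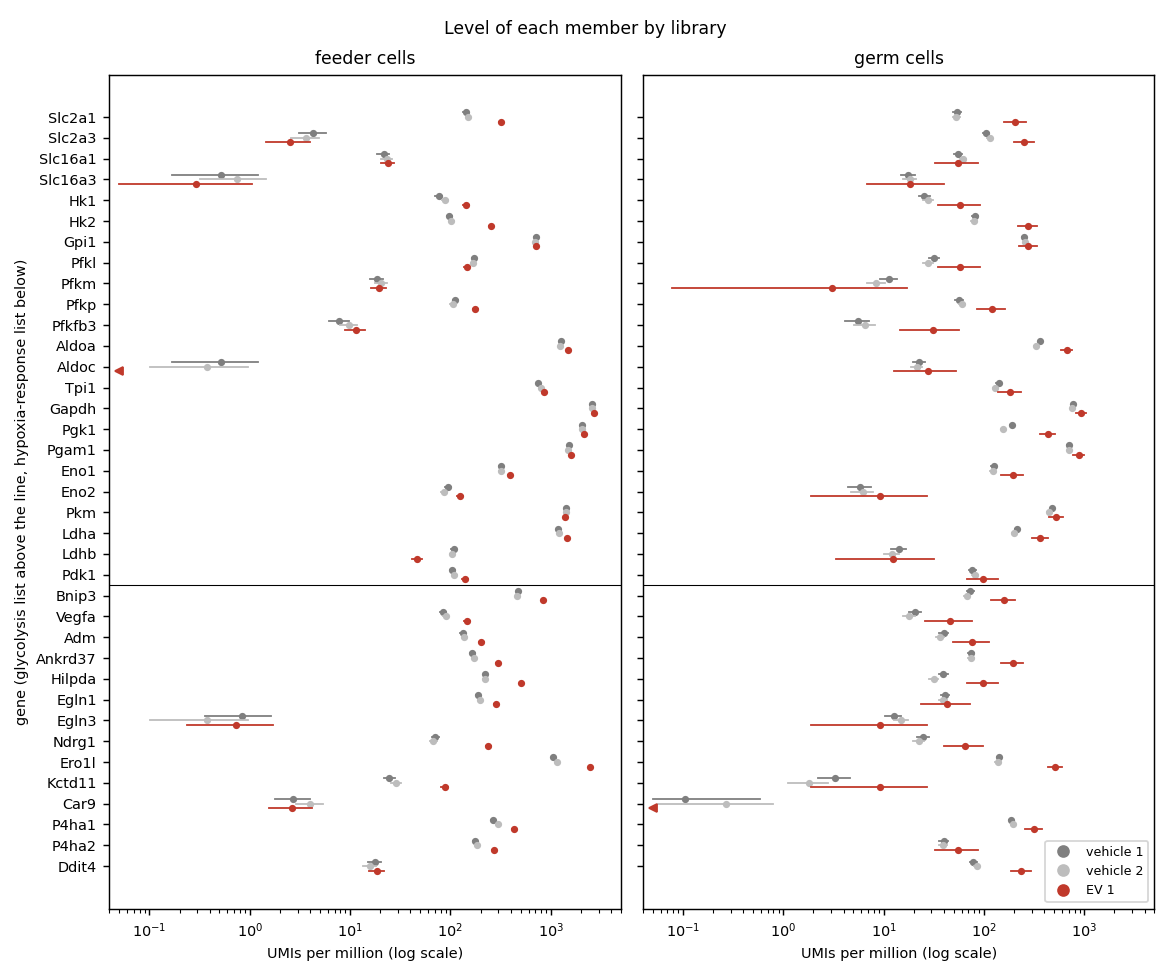
Level of each of the 37 members in feeder cells (left) and germ cells (right), in CPM on a log axis, for vehicle 1, vehicle 2 and EV 1. Points are library values and lines are 95% exact Poisson intervals, which are widest in germ cells of EV 1, and a triangle at the left edge marks 0 UMIs (Aldoc in feeder cells and Car9 in germ cells of EV 1).

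The general glycolytic enzymes followed this pattern. The 12 glycolysis genes higher in feeder cells were Hk1, Gpi1, Pfkl, Aldoa, Tpi1, Gapdh, Pgk1, Eno1, Eno2, Pkm, Ldha and Ldhb, and the 9 hypoxia-response genes were Bnip3, Vegfa, Adm, Hilpda, Egln1, Ndrg1, Ero1l, Kctd11 and P4ha2. Gapdh, which oxidizes glyceraldehyde 3-phosphate, was at 2552, 2587 and 2688 CPM in feeder cells and at 775, 751 and 920.0 CPM in germ cells. Ldha, the lactate dehydrogenase subunit that favors lactate formation, was at 1178, 1220 and 1448 CPM in feeder cells and at 213, 198 and 363 CPM in germ cells. Feeder cells were 2.92- to 3.44-fold higher for Gapdh and 3.97- to 6.18-fold higher for Ldha. Pgk1, a kinase that yields ATP in the lower pathway, had a wider gap, with feeder cells 10.6-fold, 13.2-fold and 4.94-fold higher in vehicle 1, vehicle 2 and EV 1. Tpi1, the triose phosphate isomerase, was 4.67- to 6.12-fold higher in feeder cells and Gpi1, the glucose phosphate isomerase, 2.55- to 2.79-fold. Pgam1, a phosphoglycerate mutase, was 1.80-fold higher in EV 1 and so was not called. Hk2, Pfkp, Pdk1 and P4ha1 differed by less than 2-fold between the classes in every library. Hk2, the inducible hexokinase, was 1.20-fold and 1.28-fold higher in feeder cells of the vehicle libraries and 0.93-fold in EV 1.

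The 6 genes that were higher in germ cells were Slc2a3, Slc16a1, Slc16a3, Aldoc, Egln3 and Ddit4. Slc2a3, the high-affinity transporter GLUT3, was at 105, 114 and 252 CPM in germ cells and at 4.29, 3.63 and 2.51 CPM in feeder cells. Ddit4, an inhibitor of mTORC1 signaling, was at 78.8, 84.6 and 234 CPM in germ cells and at 17.7, 15.7 and 18.4 CPM in feeder cells. In both genes every germ value lay above every feeder value. Slc16a1, the transporter MCT1, was at 55.4, 61.7 and 55.4 CPM in germ cells and at 21.5, 23.3 and 23.7 CPM in feeder cells. Aldoc, the brain-type aldolase, was at 22.6, 21.5 and 27.7 CPM in germ cells, with 5 and 4 UMIs in feeder cells of the vehicle libraries and 0 in EV 1. A count of 0 there allows up to 0.442 CPM, and the germ value of EV 1 was 62.6-fold above that limit. The counting error of the germ value is not included in this fold. Egln3, the most hypoxia-inducible of the prolyl hydroxylases, was at 12.6, 15.0 and 9.23 CPM in germ cells and below 1 CPM in feeder cells of every library. The last germ value rests on 3 UMIs.

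Paralogs of a step were therefore used in different proportions by the classes. Slc2a3 gave 66.2% (63.8 to 68.6), 68.3% (66.1 to 70.4) and 55.0% (47.0 to 62.8) of the UMIs of Slc2a1 and Slc2a3 in germ cells of vehicle 1, vehicle 2 and EV 1 (Wilson intervals). In feeder cells its share was 2.93% (2.17 to 3.95), 2.35% (1.73 to 3.20) and 0.774% (0.484 to 1.24). The germ and feeder intervals were far apart in each library. Slc16a3, the lactate exporter MCT4, gave 24.2% (21.2 to 27.5), 22.7% (20.1 to 25.6) and 25.0% (12.0 to 44.9) of the UMIs of both monocarboxylate transporters in germ cells and 2.37%, 3.09% and 1.23% in feeder cells. The EV 1 germ share rests on 6 of 24 UMIs and was 7.69% (1 of 13) with a stricter class rule, under which the vehicle 2 feeder share was 0.935%. Egln3 gave 13.6%, 15.7% and 10.0% (3.46 to 25.6, from 3 UMIs) of the prolyl hydroxylase UMIs in germ cells and at most 0.373% in feeder cells. Feeder cells drew more on Eno2, the neuronal enolase, with 22.9%, 21.3% and 23.9% of enolase UMIs against 4.42%, 4.81% and 4.55% in germ cells. They also drew more on P4ha2, a catalytic subunit of collagen prolyl 4-hydroxylase, at 39.8%, 38.4% and 39.0% against 17.5%, 16.7% and 15.0%.

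Within feeder cells, some proportions also differed between EV 1 and the vehicle libraries. Pfkp, the platelet-type phosphofructokinase, gave 51.5% (49.5 to 53.5) of the phosphofructokinase UMIs in EV 1 and 36.9% (35.2 to 38.7) and 36.0% (34.4 to 37.7) in the vehicle libraries. Hk2 gave 64.3% (62.5 to 66.1) of hexokinase UMIs against 56.1% (53.7 to 58.5) and 53.8% (51.6 to 55.9). Ldhb gave 3.13% (2.81 to 3.49) of lactate dehydrogenase UMIs against 8.35% (7.87 to 8.85) and 7.89% (7.46 to 8.34). In these 3 families the interval of EV 1 did not meet either vehicle interval, and the same held for the Slc2a3 share given above. Not every family's intervals are given, and they cover counting error in 1 treated library only. The intervals of the P4ha2 share in feeder cells met across the 3 libraries.

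**Figure D2:**
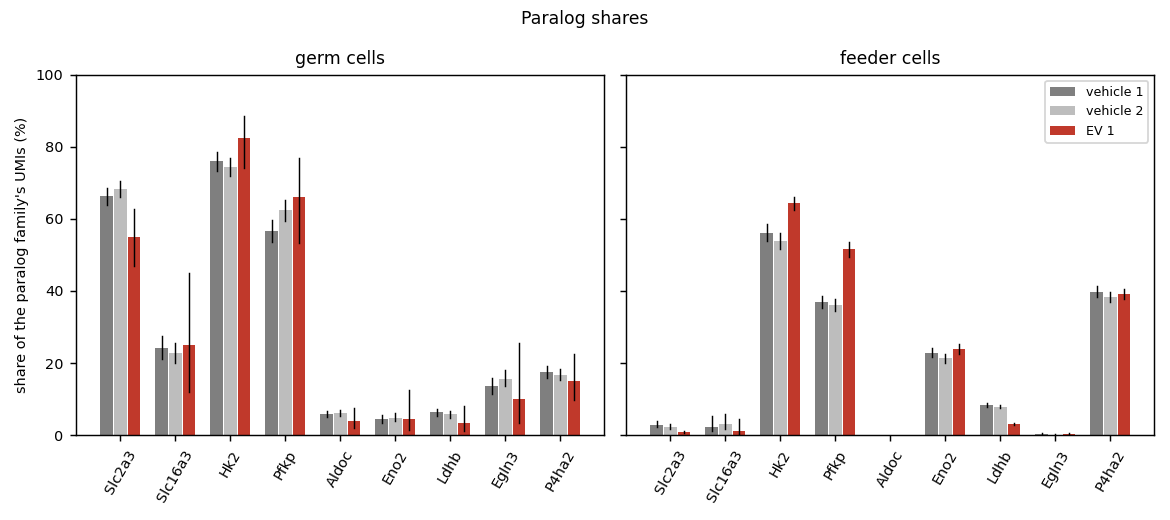
Share of a paralog family's UMIs (in percent) given by the named gene in germ cells (left) and feeder cells (right), for vehicle 1, vehicle 2 and EV 1. Bars are shares and lines 95% Wilson intervals. Slc2a3 takes 55.0% to 68.3% of its family in germ cells and at most 2.93% in feeder cells.

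RNA of feeder markers was also counted in the germ class. The 7 feeder markers named above stood in germ cells at 12.2%, 11.1% and 19.1% of their summed feeder level in vehicle 1, vehicle 2 and EV 1. Fn1 made up most of that sum, and single markers ranged from 0% to 179%. Fbn1 (159%, 154% and 179%) and Col5a1 (55.6%, 62.2% and 49.2%) were far above the sum's share, so that share is a rough estimate of the feeder RNA counted in germ cells. A member whose germ level was near these shares cannot be told apart from feeder RNA. Eno2 was below them in every library, at 6.19%, 7.20% and 7.47% of its feeder level. Pgk1 was at 9.44% and 7.59% in the vehicle libraries and at 20.2% in EV 1. Ero1l was at 13.6%, 11.9% and 20.8%, Bnip3 at 15.5%, 14.9% and 18.7%, and Hilpda at 17.6%, 14.2% and 19.4%. The 6 germ-enriched genes were above 100% in all libraries in which feeder UMIs were found, which follows from the 2-fold rule that named them. In the other direction, the 6 germ markers outside the class rule stood in feeder cells at 3.12%, 2.54% and 0.664% of their germ level.

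**Figure D3:**
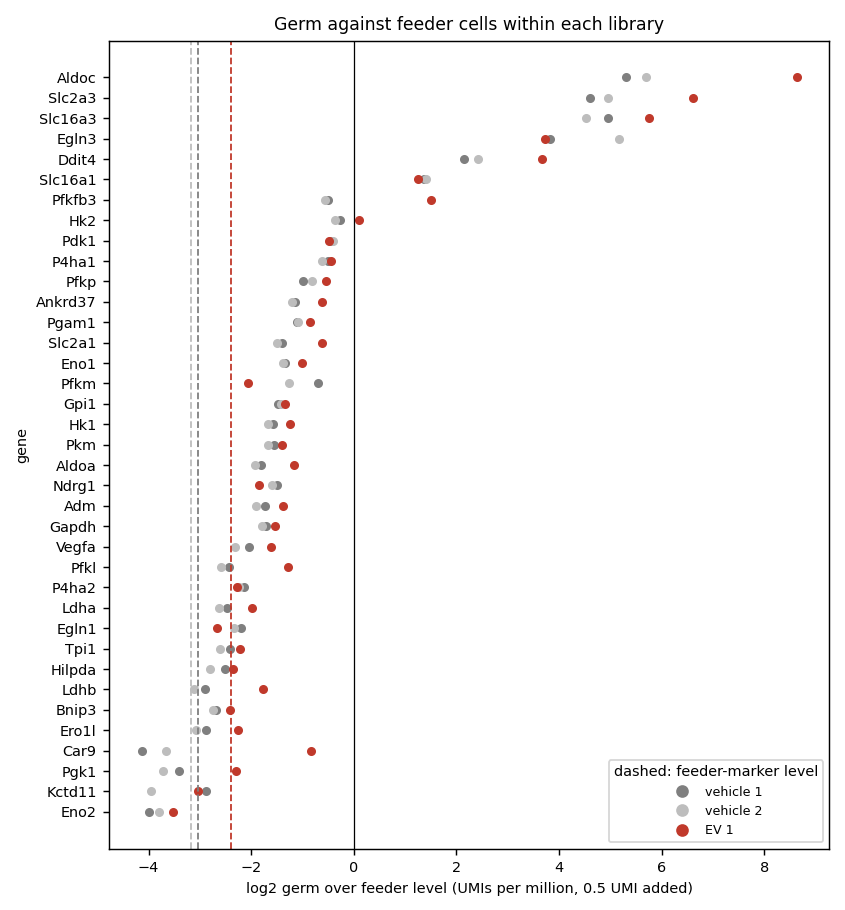
Log2 ratio of germ over feeder level for each member in vehicle 1, vehicle 2 and EV 1, with 0.5 UMI added. Dashed lines mark the level of feeder markers outside the class rule in germ cells of each library (12.2%, 11.1% and 19.1% of feeder), and genes at or left of a line, such as Eno2, are at or below that level.

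In feeder cells, EV 1 had more RNA of oxygen-responsive genes, of the main glucose transporter and of both hexokinases, while the enzymes from aldolase to pyruvate kinase were not called. A gene was called where EV 1 differed at least 1.5-fold from the vehicle mean and lay further from the nearer vehicle library than the vehicle libraries lay from each other. Of the 32 members with at least 200 UMIs in feeder cells, 14 were called higher and 1 lower, against backgrounds of 4.5% and 10.3% of 9705 genes. The hypoxia-response list gave 10 of the 14 higher calls and the glycolysis list 4. The median log2 ratio was 0.75 for the hypoxia-response list (13 genes with at least 50 UMIs) and 0.14 for the glycolysis list (21 genes), against -0.13 over all genes.

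Uptake and the first kinases came first along the pathway. Slc2a1, the transporter GLUT1, was at 142 and 151 CPM in the vehicle libraries and at 321 CPM in EV 1, a ratio of 2.19 (2.07 to 2.32). Hk2 was at 97.6, 102 and 256 CPM, a ratio of 2.56 (2.40 to 2.73). Hk1, the constitutive hexokinase, was at 76.4, 87.9 and 142 CPM, a ratio of 1.72 (1.59 to 1.87). EV 1 was the highest library for each, as the call rule requires, and the vehicle libraries lay close together. Pfkp was at 112, 106 and 176 CPM, a ratio of 1.62 (1.51 to 1.74). Its paralog Pfkl, the liver-type enzyme, was at 173, 167 and 147 CPM, a ratio of 0.863 (0.803 to 0.926), and was not called.

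None of the 9 genes from aldolase to pyruvate kinase was called in feeder cells, and the 8 with at least 50 UMIs had log2 ratios between -0.01 and 0.46. Pgk1 was at 2037, 2042 and 2133 CPM, a ratio of 1.05 (1.03 to 1.07). Pkm, the pyruvate kinase of most tissues, was at 1410, 1405 and 1398 CPM, a ratio of 0.993 (0.970 to 1.02). Ldha had a ratio of 1.21 (1.18 to 1.23), below the fold needed for a call. Ldhb, the heart-type subunit that favors pyruvate, was the single lower call, at 107, 104 and 46.9 CPM with a ratio of 0.443 (0.392 to 0.498). Pdk1, the kinase that closes pyruvate dehydrogenase and a well-known hypoxia target, was at 104, 109 and 139 CPM and was not called.

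Among the hypoxia-response genes, the highest ratios in feeder cells belonged to Ndrg1 and Kctd11. Ndrg1, a stress-response gene, was at 70.7, 67.7 and 239 CPM, a ratio of 3.46 (3.22 to 3.72). Kctd11, an adaptor of ubiquitin ligases, was at 24.6, 28.7 and 88.0 CPM, a ratio of 3.29 (2.92 to 3.70). Hilpda, a lipid-droplet protein that inhibits the lipase Atgl, was at 223, 221 and 508 CPM, a ratio of 2.29 (2.19 to 2.39). Ero1l, the oxidase that drives disulfide formation in the endoplasmic reticulum, was at 1044, 1155 and 2459 CPM, a ratio of 2.23 (2.19 to 2.27). Bnip3, a mitophagy receptor, was at 473, 460 and 839 CPM, a ratio of 1.80 (1.74 to 1.86). For every gene called higher, the call rule itself places EV 1 above both vehicle libraries.

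The remaining higher calls were smaller. Ankrd37 was at 166, 172 and 299.6 CPM. Vegfa, the angiogenic growth factor, was at 84.9, 89.7 and 147 CPM. Adm, the vasodilator peptide adrenomedullin, was at 133, 138 and 204 CPM. The ratios were 1.77, 1.68 and 1.51. The collagen hydroxylases P4ha1 and P4ha2 both had a ratio of 1.52, P4ha1 at 266, 296 and 429 CPM and P4ha2 at 176, 184 and 275 CPM. In feeder cells with at least 2000 UMIs, an alternative added after the data were seen, Adm, P4ha1 and P4ha2 were not called, at 1.496-fold, 1.47-fold and 1.48-fold. Adm lay just inside the fold needed for a call and Egln1, the main prolyl hydroxylase, just outside it, at 188, 196 and 282 CPM and 1.47 (1.39 to 1.55). With TMM or DESeq2 scaling Egln1 was called higher, while Adm was not called as a mean over cells, nor P4ha1 with the stricter class rule. Ddit4 was at 17.7, 15.7 and 18.4 CPM in feeder cells and was not called, and Car9 and Egln3 were under the minimum of 200 UMIs.

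**Figure D4:**
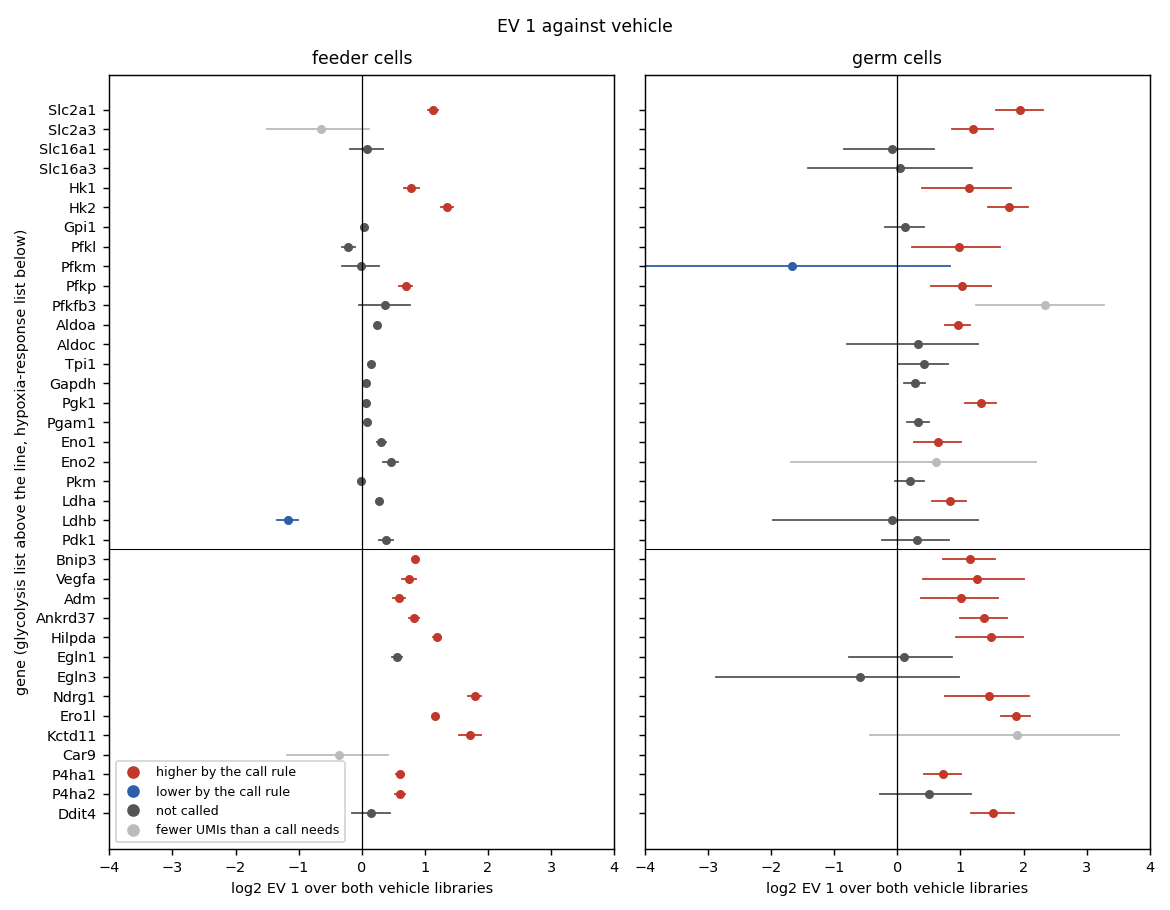
Log2 ratio of EV 1 over the pooled vehicle libraries for members with at least 50 UMIs, in feeder cells (left) and germ cells (right). Points are ratios, lines 95% exact counting intervals (cut at -4), and colors show the call. In feeder cells 14 members are higher and Ldhb is lower, while the enzymes from aldolase to pyruvate kinase lie between -0.01 and 0.46.

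Metallothioneins, which bind metals and respond to several stresses, were also higher in EV 1. Mt1 was at 2642, 2534 and 9027 CPM in feeder cells and at 709, 593 and 2686 CPM in germ cells, and Mt2 was also called higher in both classes. After each cell was thinned to 1000 UMIs, 77.5% and 78.4% of feeder cells of the vehicle libraries and 37.3% of those of EV 1 had under 5 UMIs of Mt1 and Mt2. Within feeder cells under this limit, Hilpda was at 180, 175 and 351 CPM, Ndrg1 at 61.9, 61.9 and 219 CPM, and Slc2a1 at 125, 135 and 304 CPM. In cells at or above it, the values were 382, 397 and 595 CPM for Hilpda, 100.3, 88.5 and 250.4 CPM for Ndrg1, and 204, 208 and 331 CPM for Slc2a1. All 14 genes called higher in feeder cells were above both vehicle libraries on each side of the split. The 2 sides are parts of the cells in which these genes were called, so this is a description and not a separate check. Their ratios to the vehicle mean were 1.33 to 3.58 in metallothionein-poor cells, with 1 gene (Adm) below 1.5-fold, and 1.12 to 2.65 in metallothionein-rich cells, with 8 of 14 below it (Adm, Ankrd37, Bnip3, Hk1, P4ha1, P4ha2, Pfkp and Vegfa). In the poor cells Eno2 (91.5, 86.6 and 169.8 CPM) and Pdk1 (101, 110 and 175 CPM) also met the rule for a higher call, which they did not over all feeder cells or in the rich cells. Higher calls were also more frequent over all genes in the poor cells, at 11.4% of 8782 genes, than in the rich cells, at 2.58% of 5613, counting genes with at least 200 UMIs within those cells. Ldhb was lower in EV 1 on both sides, at 43.6 CPM against 110 and 105 CPM below the limit and at 49.3 CPM against 98.8 and 103 CPM above it. Of the enzymes from aldolase to pyruvate kinase, Gapdh, Pgk1, Pgam1 and Pkm were below both vehicle libraries on each side of the split. Their ratios to the vehicle mean were 0.854 to 0.960. Aldoa and Eno1 were above both vehicle libraries on each side. Hilpda was higher in cells rich in metallothionein within every library.

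**Figure D5:**
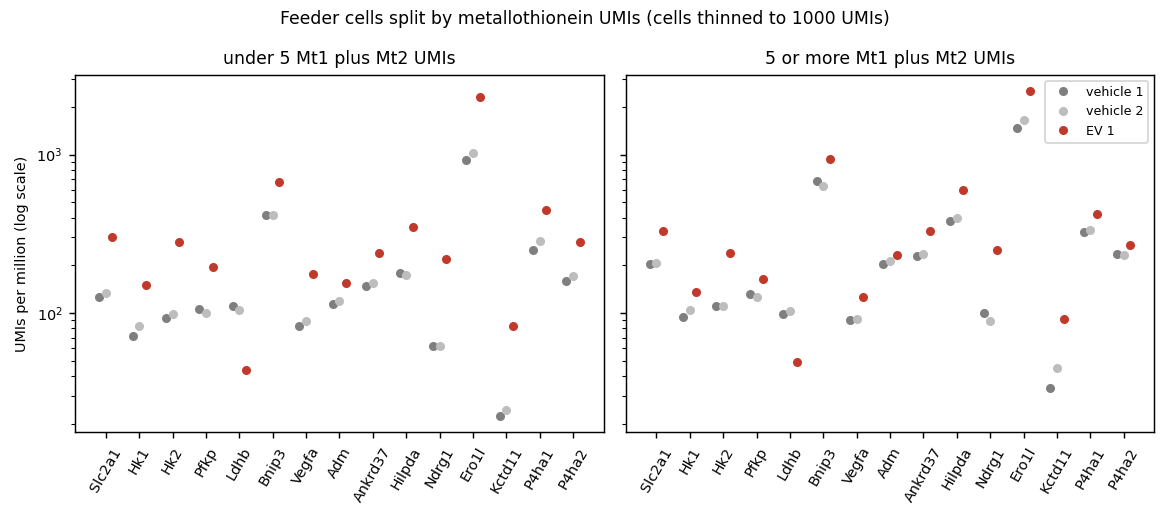
Level of the 15 called members in feeder cells with under 5 (left) and with 5 or more (right) UMIs of Mt1 plus Mt2 after thinning to 1000 UMIs, in CPM on a log axis, with 1 point per library. EV 1 lies above both vehicle libraries in both panels for every gene but Ldhb, where it lies below.

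The share of feeder cells in which Ero1l, Hilpda and Slc2a1 were seen was also higher in EV 1. At 1000 UMIs per cell, Ero1l was seen in 53.4%, 56.0% and 84.1% of feeder cells, against 79.3%, 82.2% and 94.3% before thinning. Hilpda was seen in 18.5%, 17.7% and 36.7%, and Slc2a1 in 12.4%, 14.1% and 26.9%. Ldhb, called lower, was seen in 9.34%, 8.07% and 5.46%. Gapdh, seen in 81.2%, 80.1% and 82.3%, gave shares whose intervals met across the libraries. These shares are for 2271, 2417 and 2324 cells, after 86, 56 and 184 shallower cells were left out. Across single feeder cells, members varied together only weakly. The median correlation between pairs of hypoxia-response genes was 0.06, 0.06 and 0.03 in vehicle 1, vehicle 2 and EV 1, over 45 pairs, and the highest of all pairs was Gapdh with Pgk1 at 0.29, 0.33 and 0.32. Every cell was thinned to 1000 UMIs, so depth did not vary between cells, and at this depth such values are description only.

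In germ cells, EV 1 also had more RNA of Slc2a1, Slc2a3, Hk2 and Ddit4. Of the 33 members with at least 200 UMIs, 19 were called higher and 1 lower, against backgrounds of 13.8% and 12.2% of 9674 genes. Genes near the minimum had few UMIs in EV 1. All 19 higher calls had a counting interval that left out 1. These intervals come from the same UMIs as the calls and cover counting error only, and the share over all called genes was not counted. The single lower call, Pfkm, the muscle-type phosphofructokinase, was at 11.3, 8.44 and 3.08 CPM and rests on 1 UMI in EV 1 and its interval (0.008 to 1.77) spans 1. The median log2 ratio was 0.65 for the glycolysis list and 1.30 for the hypoxia-response list, against 0.08 over all genes.

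Genes with germ levels far above the feeder-marker share come first. Slc2a3 was at 105, 114 and 252 CPM, a ratio of 2.29 (1.81 to 2.85), while its feeder level in EV 1 was 2.51 CPM. Ddit4 was at 78.8, 84.6 and 234 CPM, a ratio of 2.85 (2.24 to 3.59), with 18.4 CPM in feeder cells of EV 1. For both genes the feeder level was below the germ level in every library, as their class call requires. In germ cells with at least 2000 UMIs Slc2a3 was not called, at 99.5, 116 and 153 CPM, the last from 11 UMIs. Hk2 was at 81.3, 79.9 and 274 CPM, a ratio of 3.40 (2.71 to 4.21). Slc2a1 was at 53.8, 53.1 and 206 CPM, a ratio of 3.86 (2.97 to 4.94). At 1000 UMIs per cell, Ddit4 was seen in 7.62%, 7.71% and 22.5% of germ cells and in 1.67%, 1.78% and 1.76% of feeder cells, with 178 germ cells of EV 1 deep enough for this count.

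The remaining glycolysis calls in germ cells were Hk1 (25.5, 27.5 and 58.5 CPM), Pfkl (32.1, 28.0 and 58.5 CPM), Pfkp (56.7, 60.4 and 120.0 CPM), Aldoa (363, 329 and 668 CPM), Eno1 (126, 122 and 194 CPM) and Ldha (213, 198 and 363 CPM). The remaining hypoxia-response calls were Ankrd37 (74.7, 74.7 and 194 CPM), Vegfa (20.5, 18.1 and 46.2 CPM), Adm (39.8, 36.6 and 76.9 CPM), Ndrg1 (24.9, 22.5 and 64.6 CPM) and P4ha1 (188, 194 and 314 CPM). Hk1, Pfkl, Vegfa, Adm and Ndrg1 rest on 15 to 25 UMIs in EV 1. The 13 members tested and not called in germ cells, among them Gpi1, Tpi1, Gapdh, Pgam1 and Pkm, had ratios of 0.665 to 1.41. Pfkfb3, which makes the activator of phosphofructokinase, was under the minimum in germ cells, at 5.51, 6.54 and 30.8 CPM with 10 UMIs in EV 1.

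Other germ calls were closer to the feeder level. Pgk1 was at 192, 155 and 431 CPM and Ero1l at 142, 137 and 511 CPM. Bnip3 was at 73.3, 68.5 and 157 CPM and Hilpda at 39.4, 31.5 and 98.5 CPM. An alternative added after the data were seen took the feeder level times the feeder-marker share off each germ value. Of the 18 genes whose vehicle levels stayed above 0, 12 were then still at least 1.5-fold higher in EV 1. The 12 include Ero1l, whose level is near that share. Slc2a1 kept a log2 ratio of 2.00, Hk2 of 1.71, Ddit4 of 1.54 and Slc2a3 of 1.21. Ero1l came out at 1.84, from remainders of 15.1, 8.90 and 41.4 CPM. Its germ level was near the feeder-marker share in every library, so this ratio cannot be told apart from feeder RNA. Bnip3 and Hilpda gave no usable ratio, since in EV 1 Bnip3 came out below 0, at -3.20 CPM, and Hilpda at 1.45 CPM, less than 1 UMI, and neither did Pgk1, since its vehicle levels came out below 0. The lower-pathway enzymes Aldoa, Eno1 and Ldha were also called higher in germ cells, but Eno1 (log2 ratio 0.46) and Ldha (0.41) fell under 1.5-fold with feeder RNA taken off, as did the hypoxia-response genes Ndrg1 (1.48 to 0.38) and P4ha1 (0.73 to 0.56). Under this alternative the list medians were 0.46 for glycolysis and 0.56 for hypoxia response. With TMM scaling, which set the median of all genes at -0.30 in place of 0.08, all 19 genes kept a log2 ratio above 0, 15 were still at least 1.5-fold higher, and the list medians were 0.28 and 0.92. Aldoa (0.57), Eno1 (0.28), Ldha (0.45) and P4ha1 (0.35) were the 4 under 1.5-fold with TMM.

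Other genes of the pathways were counted from lists that held no members. Of 21 further hypoxia-response genes with at least 200 UMIs in feeder cells, 12 were called higher in EV 1 and 0 lower, against the backgrounds of 4.5% and 10.3% given above for feeder cells. The largest differences were in Hmox1, heme oxygenase (111, 125 and 325 CPM), Angptl4, an inhibitor of lipoprotein lipase (55.4, 56.2 and 141 CPM), and Pgf, placental growth factor (7.53, 7.34 and 15.8 CPM). In germ cells, where the backgrounds were 13.8% and 12.2%, 8 of 18 were called higher and 0 lower, with Gbe1, Plod2, Angptl4 and Kdm3a the largest. Of these, Gbe1 was at 8.34%, 7.54% and 9.03% of its feeder level, below the feeder-marker share in every library, and Angptl4 at 13.1% in EV 1, from 6 UMIs, also below it, so neither can be told apart from feeder RNA there. Plod2 (42.0% in EV 1) and Kdm3a (87.9%) were above it. The counting interval spanned 1 for 4 of the 8 calls, Angptl4 (0.699 to 4.27), Plod1 (0.843 to 3.08), Cited2 (0.802 to 2.61) and Ccng2 (0.693 to 3.23), the last 3 of which were named after their values were seen. Of 14 further genes of glycolysis and pyruvate use in feeder cells, 0 were higher and 1, G6pdx of the pentose phosphate pathway, was lower at 24.6, 22.3 and 14.1 CPM. In germ cells 2 of 13 such genes were called higher (Gpd2 and Pdp1) and 3 lower, with Eno3 and Dld the largest of these. Among the genes of oxygen sensing, 1 of 5 in feeder cells and 1 of 7 in germ cells were called, both higher. Hif1a RNA was at 255, 257 and 269.6 CPM in feeder cells and was not called, and Vhl was called higher at 24.1, 23.9 and 38.2 CPM. In germ cells Hif1a was called higher at 75.9, 74.9 and 138 CPM. Of the isozymes of later germ cells, only Ldhc reached 200 UMIs in germ cells and was called higher, at 10.2, 9.99 and 15.4 CPM, but from 5 UMIs in EV 1 and with a ratio of 1.53 (0.491 to 3.62) whose interval spans 1.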

How the data were processed

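Cells were captured in droplets (10x Genomics) by the authors, who aligned the reads to mm10 (GENCODE vM23) and ran Cell Ranger 7.0.1, per the study's methods and the submitters' processing notes. The deposited matrices hold UMI counts of each gene in each barcode, with no normalization. Groups came from sample titles. The members, lists and call rules were chosen with earlier results of these data known.

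A cell was kept if it had more than 400 genes, fewer than 4000 genes and less than 10% mitochondrial UMIs. The highest Scrublet scores (scanpy 1.11.5) were removed at 0.8% per 1000 cells. Germ cells had at least 2 UMIs of the 4 germ markers and more than of the 4 feeder markers, and feeder cells the reverse. UMIs were summed per class and library, with 0.5 UMI added for log2 ratios. With 1 treated library no test was run. Intervals are exact Poisson, exact conditional for ratios, or Wilson for shares. Aldoa had a second feature row with 4 UMIs, which was kept apart. All members are named, and those called in EV 1 against vehicle are given by library. Of each other list, at most 4 called genes were named by rule, those with the largest log2 ratio, and 1 of them is not reported here. Plod1, Cited2 and Ccng2 were named outside this rule. The alternatives included scaling with edgeR 4.0.16 (TMM) and DESeq2 1.42.0 (R 4.3.3), and other class, doublet, minimum and pseudocount settings. Reads of Gapdh and other genes with near-identical processed copies could be split between copies in counting.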

Additional observations from a re-analysis of the deposited data

Results flagged for a closer look

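Pfkl, the liver-type phosphofructokinase, differed in direction between the classes. In germ cells it was at 32.1, 28.0 and 58.5 CPM in vehicle 1, vehicle 2 and EV 1, a log2 ratio of 1.00 (ratio 1.96, 1.17 to 3.08, from 19 UMIs in EV 1). In feeder cells it was at 173, 167 and 147 CPM, a log2 ratio of -0.21. EV 1 lay on opposite sides of both vehicle libraries in the 2 classes, and the difference itself was not tested, since EV 1 is 1 library.

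Cells that met neither class rule were in no comparison of the report. They made up 18.1% and 16.0% of the vehicle libraries and 42.8% of EV 1. In them the hypoxia-response list summed to 1639, 1568 and 4895 CPM in vehicle 1, vehicle 2 and EV 1, a log2 ratio of 1.61, and the glycolysis list to 7204, 7150 and 11007 CPM, a log2 ratio of 0.62. Not all members rose with these sums. Among genes higher in germ cells, Slc2a3 was at 43.7, 42.1 and 14.8 CPM and Ddit4 at 50.7, 48.8 and 34.4 CPM. Aldoc was at 12.2, 10.3 and 1.72 CPM. The median mitochondrial share of these cells was 3.27%, 2.82% and 1.70%. Which cells these are was not established, and whether their mix differed between the libraries was not tested.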

How the results depend on the processing

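With scaling by TMM the list medians (log2) were 0.22 (glycolysis) and 0.82 (hypoxia response) for EV 1 against vehicle in feeder cells, 0.28 and 0.92 in germ cells, and -1.83 and -2.59 for germ against feeder cells. With DESeq2 size factors they were 0.24, 0.84, 0.51, 1.16, -1.85 and -2.60. The median over all genes moved from 0.08 to -0.30 and -0.06 in germ cells and from 0.42 to -0.07 and -0.08 between classes under TMM and DESeq2. The higher share of all calls went from 30.4% to 41.6% and 45.0% in feeder cells, from 53.1% to 12.4% and 34.1% in germ cells, and, for germ-higher calls between classes, from 65.9% to 44.4% and 45.3%. In germ cells the glycolysis median for EV 1 was 0.82 with the stricter class rule, 0.62 with no doublet removal, 0.71 as a mean over cells, 0.71 in metallothionein-poor cells, 0.94 with a pseudocount of 5 UMIs, 0.91 in cells with at least 2000 UMIs and 0.46 with feeder RNA taken off. The hypoxia-response median there was 1.12 as a mean over cells, 1.48 with the larger pseudocount and 0.56 with feeder RNA taken off. In feeder cells the hypoxia-response median was 0.68 with no minimum and 0.65 in cells with at least 2000 UMIs. Between classes the glycolysis median was -1.18 in cells with at least 2000 UMIs and -2.10 with feeder RNA taken off, and the hypoxia-response median -1.72 with the larger pseudocount and -3.65 with feeder RNA taken off. The 2 alternatives on depth and feeder RNA were chosen after seeing the data. The cause of these shifts was not tested. Leaving out 1 library at a time gave medians of 0.10 to 0.19 and 0.71 to 0.79 in feeder cells, 0.63 to 0.68 and 1.21 to 1.39 in germ cells, and -1.45 to -1.38 and -2.18 to -2.02 between classes. EV 1 could not be left out of its own contrast.

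The number of members called higher was 11 to 15 in feeder cells (14 as reported) and 14 to 22 in germ cells (19) under the alternatives above, but 6 in metallothionein-rich feeder cells. The 14, with feeder RNA taken off, count Pgk1, whose vehicle levels came out below 0 and were set to 0. In cells with at least 2000 UMIs, Adm, P4ha1 and P4ha2 lost their calls in feeder cells and Slc2a3, Eno1 and P4ha1 in germ cells. Eno1 also lost its germ call with DESeq2 size factors, and Eno1 and P4ha1 with the stricter class rule. Members called lower numbered 4 in feeder cells with no minimum. In germ cells they numbered 2 under TMM, 2 under the stricter rule, 2 in metallothionein-poor cells, 0 with the larger pseudocount and 6 with feeder RNA taken off. Of all genes, higher calls in feeder cells went from 437 to 1189 in metallothionein-poor cells, over the 9705 genes with at least 200 UMIs in all feeder cells. In germ cells higher and lower calls (1335 and 1178) became 446 and 3155 under TMM, 2578 and 112 with the larger pseudocount, 2513 and 2201 in cells with at least 2000 UMIs, and lower calls 1844 with feeder RNA taken off. Between classes germ-higher calls (3232) became 2131 under TMM, and feeder-higher calls (1670) became 2668 under TMM, 2652 with DESeq2 and 646 with the larger pseudocount. No called member changed direction in feeder cells or between classes. In germ cells Pfkm turned to 0.83 with the larger pseudocount, and Bnip3 to -3.44 and Hilpda to -1.70 with feeder RNA taken off, values that depend on the pseudocount because Bnip3 in EV 1 came out below 0 and was set to 0 and Hilpda at less than 1 UMI. Of 168 recomputed paralog shares, 160 stayed inside their counting interval. The others were, with the stricter class rule, Eno2 in feeder cells of EV 1 (21.3%), Ldhb in germ cells of EV 1 (0%), Slc16a3 in feeder cells of vehicle 2 (0.935%) and in germ cells of EV 1 (7.69%) and vehicle 1 (20.5%), and Slc2a3 in feeder cells of vehicle 1 (2.13%) and vehicle 2 (1.62%), and with no doublet removal Slc2a3 in feeder cells of vehicle 2 (3.64%). No paired analysis was possible because only 1 library of the EV arm had counts used here, so the arms share fewer than 2 replicate numbers. The germ contrast is limited by the germ cells of EV 1, whose 325012 UMIs were the fewest of any class and library.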
